A study of Mus musculus with 24 samples.

Results

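Tdrp, Arl5c, Bambi-ps1, Atp8a2 and Gjb2 are 5 genes measured in bulk RNA of preparations of unstimulated splenic CD4+ T cells. These genes lost most of their transcript within hours of T cell receptor stimulation. They were chosen by their measured fall in CPM at 3 or 6 h in these same libraries, where they stood among the largest, so their changes are described here and not tested. They make up 5 of the 54446 identifiers in the count table, of which 15325 passed the filter on low counts, and all 5 passed it. That filter keeps a gene that is high in only some of the groups, as these are at 0 h. Poly(A) RNA was sequenced from CD4+ T cells that had been purified from spleen by negative immunomagnetic selection and activated with anti-CD3 and anti-CD28 antibodies. The WT group is C57BL/6 mice 1, 3 and 4. The Aim2-/- group, which lacks a functional gene for the DNA sensor Aim2 in every cell, is mice 1, 2 and 4 on the C57BL/6 background. Mice were matched for sex and age, and their ages are not given. Cells of each mouse were taken at 0, 3, 6 and 24 h, which gave 8 groups of 3 libraries (24 in all), and a mouse contributes 1 library to each time.

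Naive CD4+ T cells are quiescent, and engagement of the T cell receptor together with CD28 replaces much of their transcript pool before they grow and divide. The level of a transcript in bulk RNA is the balance of its synthesis and its decay, and these libraries do not separate them. The 5 genes have unrelated functions. Tdrp encodes a testis development related protein that is known from spermatogenesis. Arl5c is an ARF-like small GTPase of the ARL5 group, which acts in membrane traffic at the Golgi. Bambi-ps1 is a processed pseudogene, an intronless copy of the transcript of Bambi, whose protein is a decoy receptor that restrains TGF-beta and BMP signalling. Atp8a2 is a catalytic subunit of a P4-ATPase, a flippase that moves phosphatidylserine from the outer to the inner leaflet of a membrane. Gjb2 encodes a connexin, the building block of the gap junction channels that join neighbouring cells, and is best known from the inner ear and skin.

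Library totals lay between 19715161 and 21627018 counts. Levels are given as CPM, the counts of a gene scaled to a common library size, after correction of the library size by the trimmed mean of M values. Aim2 goes against 1 label: the 4 libraries of the mouse labelled WT 1 had between 5.57 and 21.5 CPM, within or near the 5.28 to 20.1 CPM of the Aim2-/- libraries, whereas mice WT 3 and WT 4 had between 32.5 and 75.0 CPM. The fitted changes of the 5 genes in WT cells, their differences between genotypes and the list counts are therefore also given without it. Summed CD4 T cell markers (7 of 7 with counts, Cd3e and Cd4 among them) stood between 3116 and 4701 CPM in all libraries. Of the markers of other cell types, the B cell, myeloid and neutrophil sums were higher in every Aim2-/- than in every WT library at 0 and at 24 h, the erythroid, NK and CD8 T cell sums overlapped at both times, and the endothelial and stromal sum was lower in Aim2-/- libraries at 0 h (153–198 against 199–254 CPM). At 0 h the 7 myeloid markers summed to between 38.3 and 62.5 CPM in WT libraries and to 397, 118 and 196 CPM in mice Aim2-/- 1, 2 and 4. At 24 h they summed to between 15.9 and 28.3 CPM in WT and between 32.8 and 176 CPM in Aim2-/- libraries. The neutrophil sum was 23.7–27.0 CPM in WT and 101–249 CPM in Aim2-/- libraries at 0 h, and 2.78–3.55 and 8.97–72.1 CPM at 24 h. The endothelial and stromal sum was mostly Pecam1, at a median of 129 CPM over the 24 libraries. Epcam had a median of 7.35 CPM, and Cdh5, Kdr, Col1a1, Col1a2 and Pdgfrb had medians between 0.044 and 0.698 CPM. In WT libraries the NK cell sum went from 7.70–13.9 to 1.37–3.13 CPM and the endothelial and stromal sum from 199–254 to 43.8–53.9 CPM. These sums were lower at 24 h than at 0 h, as the 5 genes were, and their part in the falls was not tested. In bulk RNA, fewer cells of a type and less RNA per cell cannot be told apart.

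Bambi-ps1 has a parent gene of similar sequence, so a stretch of it is shown that is as long as 1 read (51 bases, GRCm38 chr2:122467300-122467350, minus strand) and that, among stretches aligned without a gap, differs most from the Bambi transcript. Capitals mark the 8 bases that differ from Bambi in the alignment.
Bambi-ps1: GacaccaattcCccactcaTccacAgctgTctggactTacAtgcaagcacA
Over 597 aligned columns the pseudogene had 88.6% identity with Bambi (46 mismatches, 22 gaps), and none of its 542 read-length windows occurred in a transcript of another gene. The same held for the 4785 windows of Tdrp and the 2356 of Gjb2. Arl5c shared 39 of 2023 windows (1.93%) with other genes. Atp8a2 shared 2256 of 15394 (14.7%), the largest share of the 5, and how this affected its count was not tested.

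All 5 genes lie on the minus strand of GRCm38, as 49.6% of the tested genes do. Tdrp (ENSMUSG00000050052) spans chr8:13952008-13975032, Arl5c (ENSMUSG00000038352) chr11:97989578-97996181 and Bambi-ps1 (ENSMUSG00000081219) a single exon of 592 bases at chr2:122466935-122467526. Gjb2 (ENSMUSG00000046352) at chr14:57098600-57104702 and Atp8a2 (ENSMUSG00000021983) at chr14:59638540-60197179 share a chromosome and do not overlap. None of the other members overlaps a gene, whereas Atp8a2 overlaps 6 annotated genes. Only 1 of these was among the tested genes (Gm9013, a processed pseudogene on the same strand, called in none of the stimulation contrasts). Nupl1, another of the 6, is protein-coding and on the same strand, and how the overlap affected the count of Atp8a2 was not tested. The gene 4930563I02Rik among the 6 is antisense, and the sources used here do not say whether the counting used strand.

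Tdrp was the most abundant of the 5 by CPM and fell furthest at 3 h. At 0 h its level was 272, 371 and 356 CPM in WT mice 1, 3 and 4 and 133, 239.9 and 232 CPM in Aim2-/- mice 1, 2 and 4. At 3 h it was 34.4, 36.9 and 40.1 CPM in the WT mice, in the same order, and 25.3, 33.0 and 32.2 CPM in the Aim2-/- mice. Each mouse had thus kept between 9.95% and 19.0% of its own 0 h level, and no library at 3 h came near any library at 0 h. At 6 h WT mice had 25.4, 25.4 and 28.0 CPM and Aim2-/- mice 21.7, 26.3 and 24.4 CPM. The 24 h levels were 17.2, 11.7 and 13.5 CPM for WT and 11.1, 11.8 and 10.5 CPM for Aim2-/- mice. The later decline was slow but steady, being lower at 6 h than at 3 h and lower at 24 h than at 6 h in 6 of 6 mice. The fitted log2 change from 0 h was -3.16 (SE 0.19), -3.66 (SE 0.19) and -4.56 (SE 0.20) at 3, 6 and 24 h in WT cells. The Aim2-/- values were -2.74 (SE 0.18), -3.06 (SE 0.19) and -4.18 (SE 0.20). The WT changes without the mouse labelled WT 1 were -3.24, -3.77 and -4.85.

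Arl5c followed a similar early course and fell by less after 3 h. Its 0 h level was 165, 199 and 172 CPM in the WT mice and 108, 144 and 159 CPM in the Aim2-/- mice. At 3 h it was 36.3, 29.5 and 27.7 CPM in WT and 35.5, 28.8 and 30.4 CPM in Aim2-/- mice, and the ranges of the genotypes at 3 h lay on top of each other. At 6 h WT cells had 21.5, 15.5 and 16.1 CPM and Aim2-/- cells 33.1, 24.3 and 23.6 CPM, so that every Aim2-/- library stood above every WT library. At 24 h the levels were 16.1, 14.1 and 16.4 CPM in WT and 23.1, 16.9 and 18.8 CPM in Aim2-/- mice. Between 6 and 24 h the level dropped in 5 of 6 mice, and in mouse WT 4 it went from 16.1 to 16.4 CPM. The fitted log2 change over that interval was -0.19 (SE 0.17) in WT and -0.46 (SE 0.17) in Aim2-/- cells. Fitted changes from 0 h were -2.52 (SE 0.17), -3.34 (SE 0.18) and -3.52 (SE 0.18) on the log2 scale in WT cells at 3, 6 and 24 h. They were -2.12 (SE 0.17), -2.34 (SE 0.17) and -2.80 (SE 0.17) in Aim2-/- cells. Leaving out the mouse labelled WT 1 gave -2.70, -3.55 and -3.60 in WT cells.

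Bambi-ps1 is 1 of 648 processed pseudogenes among the tested genes, and by CPM per kilobase of exon it had the highest mean of the 5 in WT cells at 0 h. In Aim2-/- cells its mean of 66.1 ± 24.5 CPM per kilobase equalled that of Arl5c (66.1 ± 12.4; SD, n = 3). Before stimulation WT mice had 51.9, 78.4 and 61.3 CPM and Aim2-/- mice 22.5, 49.5 and 45.4 CPM. At 3 h the WT levels were 9.63, 11.9 and 7.85 CPM and the Aim2-/- levels 6.32, 8.62 and 7.63 CPM. Almost the whole drop in CPM had then taken place. From 3 to 6 h the fitted log2 change was -0.47 (SE 0.23) in WT and -0.13 (SE 0.24) in Aim2-/- cells. The level was lower at 6 h than at 3 h in 4 of 6 mice, the exceptions being mice Aim2-/- 1 and 4. The 6 h levels were 6.21, 7.98 and 7.06 CPM in WT and 6.37, 6.52 and 7.80 CPM in Aim2-/- mice. At 24 h WT mice had 4.00, 3.85 and 5.18 CPM and Aim2-/- mice 3.91, 4.38 and 4.05 CPM, below 6 h in every mouse. On the log2 scale WT cells changed by -2.70 (SE 0.24), -3.17 (SE 0.24) and -3.87 (SE 0.25) at 3, 6 and 24 h, and by -2.82, -3.21 and -3.95 without the mouse labelled WT 1. Aim2-/- cells changed by -2.38 (SE 0.24), -2.504 (SE 0.24) and -3.25 (SE 0.25).

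The parent gene Bambi was measured at a much lower level. Its course is given beside that of the pseudogene as a description, since Bambi-ps1 was chosen for a large early fall and Bambi was not. At 0 h Bambi stood at 5.001, 7.24 and 7.71 CPM in the WT mice and 8.04, 8.32 and 9.06 CPM in the Aim2-/- mice. Per kilobase of exon that was 1.31 ± 0.285 CPM in WT cells (SD, n = 3), against 108 ± 22.7 for Bambi-ps1. After 3 h WT mice 1, 3 and 4 kept 59.3, 57.4 and 57.6% of their Bambi level and 18.6, 15.2 and 12.8% of their Bambi-ps1 level. The Aim2-/- mice kept 58.8, 48.5 and 55.6% of Bambi and 28.1, 17.4 and 16.8% of Bambi-ps1. Bambi itself was called lower at 3 h in both genotypes, with a log2 change of -0.79 (SE 0.23, adjusted p 0.0110) in WT and -0.88 (SE 0.23, adjusted p 0.00528) in Aim2-/- cells (edgeR quasi-likelihood test). By 24 h 17.2 ± 1.97% of Bambi and 7.03 ± 1.87% of Bambi-ps1 were left in WT cells (mean ± SD, n = 3).

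**Figure D1:**
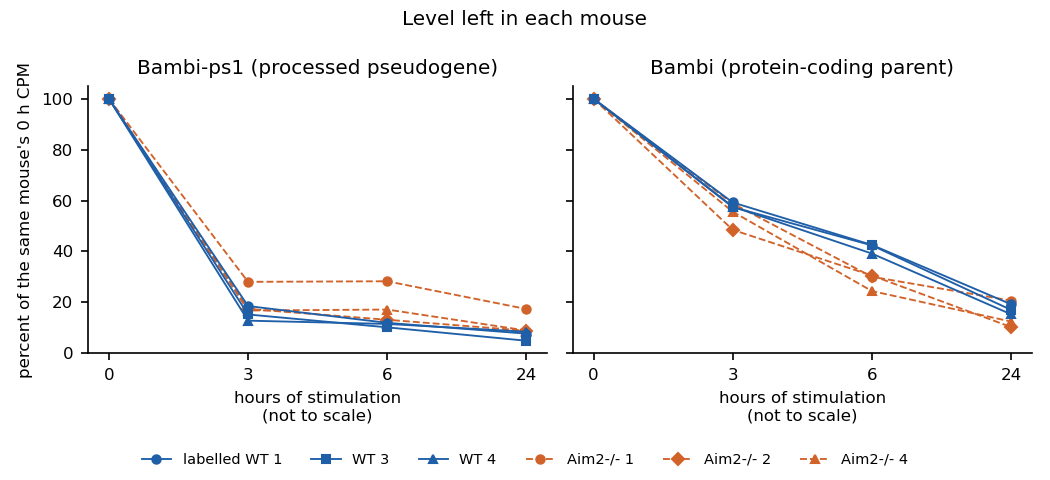
Percent of the same mouse's 0 h CPM that remained of Bambi-ps1 (left) and of its parent gene Bambi (right) at 0, 3, 6 and 24 h, with 1 line per mouse, WT solid and Aim2-/- dashed. At 3 h the 6 mice kept between 12.8% and 28.1% of Bambi-ps1 and between 48.5% and 59.3% of Bambi.

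Atp8a2 had a low level at 0 h and disappeared almost fully by 24 h. Its 0 h level was 6.95, 8.74 and 16.0 CPM in the WT mice and 14.1, 6.94 and 9.11 CPM in the Aim2-/- mice, and the genotypes overlapped. At 3 h the levels were 2.59, 3.400 and 7.10 CPM in WT and 4.17, 3.16 and 2.82 CPM in Aim2-/- mice, and the highest value at 3 h, in mouse WT 4, was above the lowest at 0 h. At 6 h they were 0.709, 0.828 and 1.17 CPM in WT and 0.527, 0.878 and 0.722 CPM in Aim2-/- mice, far below every 0 h library. Between 3 and 6 h the fitted change was -2.27 (SE 0.41) in WT and -2.25 (SE 0.42) in Aim2-/- cells on the log2 scale, which was larger than -1.27 (SE 0.37) and -1.57 (SE 0.38) during the first 3 h. At 24 h only 3, 3 and 8 reads were counted in the WT libraries and 2, 2 and 1 in the Aim2-/- libraries. From summed counts, the 0 h level was 44.2 times that at 24 h in WT cells (exact 95% interval 26.1 to 81.3) and 121 times in Aim2-/- cells (51.4 to 373). These intervals cover counting error only.

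Gjb2 behaved like Atp8a2. At 0 h it had 8.70, 4.29 and 6.24 CPM in the WT mice and 15.9, 7.78 and 9.16 CPM in the Aim2-/- mice, with mouse Aim2-/- 1 the highest. At 3 h the levels were 2.87, 1.42 and 2.43 CPM in WT and 3.74, 2.52 and 2.59 CPM in Aim2-/- mice. At 6 h they had dropped to 0.887, 0.828 and 0.487 CPM in WT and 0.967, 0.739 and 0.674 CPM in Aim2-/- mice, where the genotypes overlapped and all 6 mice stood under 1 CPM. The fitted log2 change from 0 h was -1.51 (SE 0.37) at 3 h and -3.11 (SE 0.41) at 6 h in WT cells, and -1.89 (SE 0.37) and -3.78 (SE 0.41) in Aim2-/- cells. Without the mouse labelled WT 1 the WT values were -1.45 and -2.99, and for Atp8a2 they were -1.23 and -3.62. At 24 h the WT values without that mouse were -4.64 for Gjb2 and -5.42 for Atp8a2, against -4.71 and -5.43 with it. At 24 h 6, 5 and 3 reads were counted in the WT and 7, 1 and 2 in the Aim2-/- libraries. The summed 0 h level was 27.0 times the 24 h level in WT cells (15.9 to 49.8) and 65.7 times in Aim2-/- cells (35.5 to 138).

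**Figure D2:**
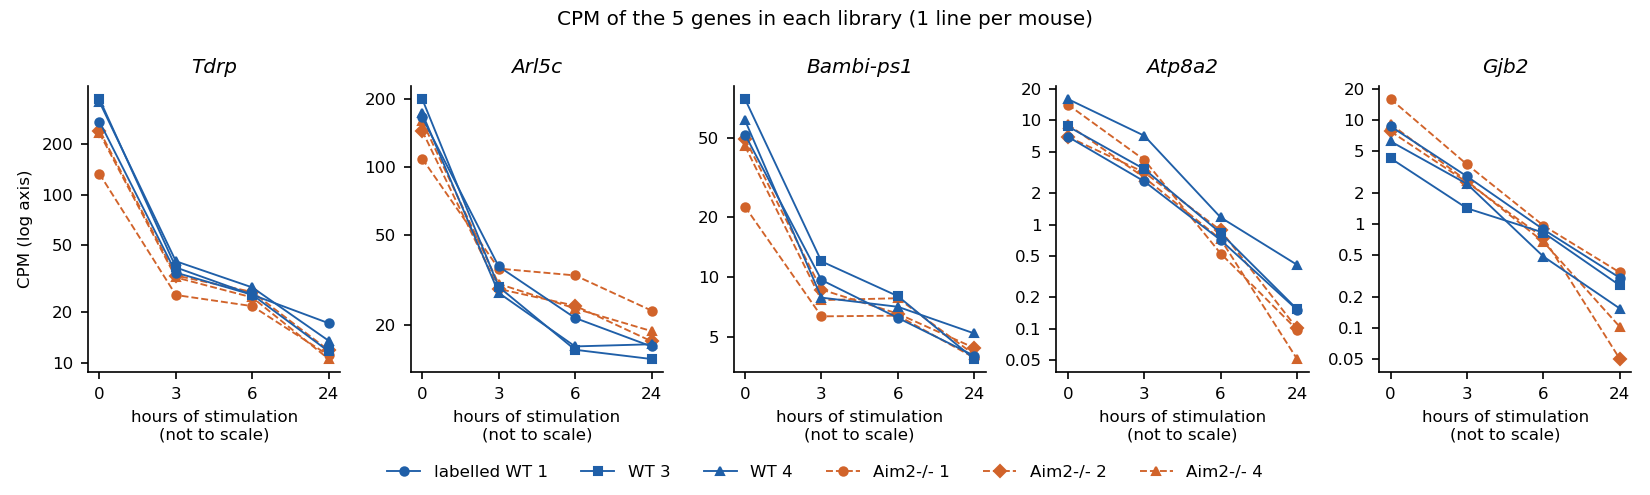
CPM (log axis) of each gene in all 24 libraries at 0, 3, 6 and 24 h, with 1 line per mouse, WT solid and Aim2-/- dashed. On the log2 scale Tdrp, Arl5c and Bambi-ps1 dropped mainly between 0 and 3 h, whereas most of the fall of Atp8a2 and Gjb2 came after 3 h. Tdrp, Atp8a2 and Gjb2 fell in every interval in 6 of 6 mice.

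The share of the fall that had taken place by 3 h differed between the genes chosen for their 3 h and for their 6 h values, as the choice itself favours. Of the total log2 fall from 0 to 24 h in the same mouse, Tdrp had gone through a median of 66.7% by 3 h (range 63.9 to 74.9%, 6 mice), Arl5c through 73.7% (65.1 to 77.7%) and Bambi-ps1 through 72.4% (62.4 to 83.2%). Atp8a2 had gone through 22.99% (18.6 to 25.8%) and Gjb2 through 30.6% (22.4 to 39.4%). The ranges of the first 3 genes and of the other 2 did not overlap at 3 h, although the 24 h levels of Atp8a2 and Gjb2 in that share rest on 1 to 8 reads a library. All 5 were lower at 3 h than at 0 h in 6 of 6 mice. Of all tested genes, 16.4% were called lower in WT cells at 3 h and 24.8% at 6 h, and 14.6% and 22.7% in Aim2-/- cells, but the members were picked for these falls and nothing is read from that.

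**Figure D3:**
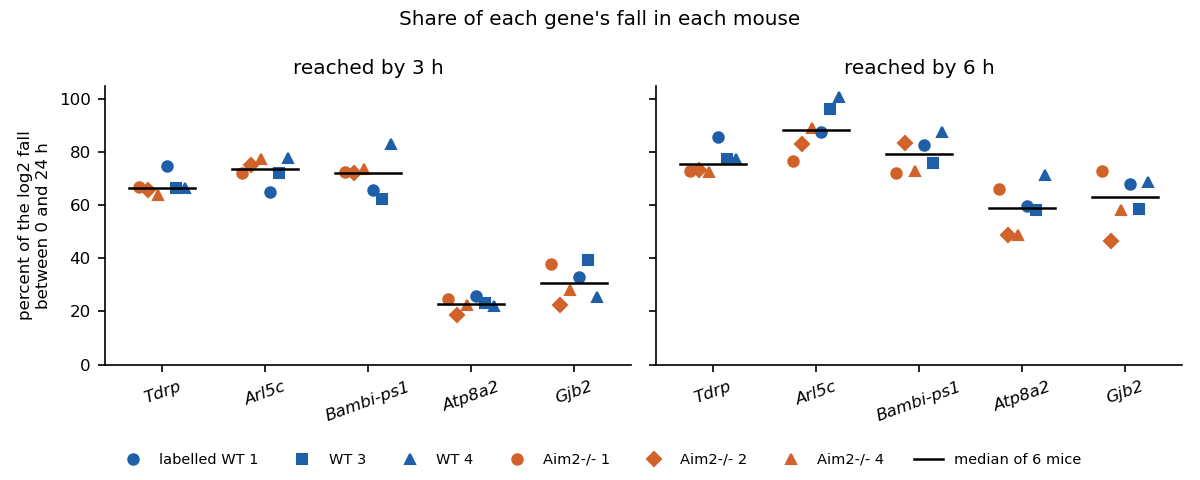
Percent of each gene's log2 fall between 0 and 24 h that had taken place by 3 h (left) and by 6 h (right), with 1 point per mouse and the median of 6 mice as a bar. At 3 h the medians were 66.7%, 73.7% and 72.4% for Tdrp, Arl5c and Bambi-ps1 and 22.99% and 30.6% for Atp8a2 and Gjb2.

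Genes were ordered by the fitted fall if they had a mean of at least 10 CPM at 0 h and were called. Their libraries had to be free of overlap, and clone names (Gm numbers, Rik and the like) were left out. The members were chosen for large falls at 3 or 6 h in these libraries. Their high places at those times follow from that choice, and nothing is read from them. Tdrp, Bambi-ps1 and Arl5c led the 2141 genes in this order in WT cells at 3 h, and the next was Hey1 (-2.505), a Notch target. In Aim2-/- cells at 3 h Tdrp and Bambi-ps1 again led, followed by Hey1 (-2.35), and Arl5c was number 7 of 1859. At 6 h in WT cells Ctsf (-4.48), a lysosomal protease, and Hey1 (-3.68) preceded Tdrp and Atp8a2, and Pak1 (-3.46), a kinase of the cytoskeleton, came next. In Aim2-/- cells at 6 h Atp8a2 and Gjb2 were the first of 2689 genes, Hey1 (-3.51) followed, and Tdrp was number 6. By 24 h others had overtaken them, and in WT cells Tdrp stood at 34, Bambi-ps1 at 70 and Arl5c at 102 of 3452, while Atp8a2 stood at 11. In WT cells Gjb2 was below the 10 CPM minimum, with a mean of 6.41 ± 2.21 CPM at 0 h (SD, n = 3). The order depends on these conditions: over all 15325 tested genes the WT fall at 3 h of Tdrp was number 20, of Bambi-ps1 31 and of Arl5c 44. Among the 11864 genes with a mean of at least 1 CPM at 0 h and no other condition, they were number 5, 9 and 16.

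Per kilobase of exon, the members fell into an abundant and a scarce set at 0 h. In WT cells Bambi-ps1 had 108 ± 22.7 CPM per kilobase (SD, n = 3), Arl5c 86.3 ± 8.63, Tdrp 70.9 ± 11.3, Gjb2 2.66 ± 0.919 and Atp8a2 0.685 ± 0.310. The libraries of Arl5c overlapped those of Bambi-ps1. Those of both genes lay above those of Tdrp, for Arl5c only just (lowest 79.7 against highest 78.9 CPM per kilobase). The 3 genes lay between percentiles 96.0 and 97.7 of 15318 annotated tested genes. Gjb2 lay at percentile 43.3 and Atp8a2 at percentile 26.0. At 24 h the order of the first 3 had changed to Arl5c (7.50 ± 0.594), Bambi-ps1 (7.34 ± 1.23) and Tdrp (3.01 ± 0.598), where Arl5c and Bambi-ps1 did not differ beyond their spread.

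Mice differed widely before stimulation. The highest 0 h library had 2.79 times the Tdrp of the lowest, 1.84 times the Arl5c, 3.48 times the Bambi-ps1, 2.30 times the Atp8a2 and 3.71 times the Gjb2. Mouse Aim2-/- 1, whose myeloid marker sum was the highest, had the lowest Tdrp, Arl5c and Bambi-ps1 and the highest Gjb2 of the 6 mice at 0 h, and the part of those other cells in these values was not tested. As a description, the fitted difference between Aim2-/- and WT cells at 0 h was -0.72 (SE 0.17) for Tdrp, -0.38 (SE 0.16) for Arl5c and -0.71 (SE 0.22) for Bambi-ps1 on the log2 scale, and -0.49, -0.24 and -0.42 without mouse Aim2-/- 1. Without the mouse labelled WT 1 it was -0.85, -0.44 and -0.83. Gjb2 differed the other way by 0.77 (SE 0.36), which was 0.41 without mouse Aim2-/- 1 and 1.06 without the mouse labelled WT 1. The difference of Atp8a2 had no stable direction, being -0.068 (SE 0.36), then -0.39 and -0.30 without these mice, and between -0.42 and 0.32 over all alternatives. At 6 h Arl5c differed by 0.61 (SE 0.17), towards Aim2-/- cells, by 0.77 without the mouse labelled WT 1 and by 0.44 without mouse Aim2-/- 1. The highest library had 1.59, 1.29 and 1.63 times the Tdrp of the lowest at 3, 6 and 24 h. For Arl5c the ratios were 1.31, 2.13 and 1.64, and for Bambi-ps1 1.89, 1.29 and 1.35. At 3 and 6 h they were 2.74 and 2.22 for Atp8a2 and 2.64 and 1.99 for Gjb2, so that the spread between mice narrowed in some genes and widened in others.

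Whether Aim2 deficiency altered the level left at 24 h was tested, as the rule that chose the genes did not use the 24 h libraries. Tdrp, Arl5c and Bambi-ps1 were not called by edgeR's quasi-likelihood test with Benjamini-Hochberg adjustment over all 15325 genes, and 0.666% of all genes were (0.659% higher and 0.00653% lower in Aim2-/- cells). That share is unstable, as 102 genes were called here, 5 with limma-voom, 787 with DESeq2, and between 0 and 2702 when 1 library or mouse was left out. Atp8a2 and Gjb2 were not called either, but they passed the filter through their 0 h groups and had too few reads at 24 h for that to be informative. Tdrp differed by -0.34 (SE 0.19) on the log2 scale with an adjusted p of 0.324, and the highest Aim2-/- library (mouse 2, 11.8 CPM) lay just above the lowest WT library (mouse 3, 11.7 CPM). For Arl5c the difference was 0.34 (SE 0.17) with an adjusted p of 0.271, and every Aim2-/- library stood above every WT library. Bambi-ps1 differed by -0.079 (SE 0.25) (adjusted p 0.892) with overlapping libraries. Without the mouse labelled WT 1 these differences were -0.18, 0.36 and -0.14, and without mouse Aim2-/- 1 they were -0.34, 0.20 and -0.043. For Atp8a2 the summed counts of 14 in WT and 5 in Aim2-/- libraries gave a ratio of 2.85 (exact 95% interval 0.971 to 10.1), with an adjusted p of 0.271 in the fit. For Gjb2 the counts of 14 and 10 gave 1.43 (0.589 to 3.59), with an adjusted p of 0.679. The fitted log2 differences of these 2 genes depend on the prior count, and were -1.45 (SE 0.74) for Atp8a2 and -0.50 (SE 0.62) for Gjb2, or -1.69 and -0.29 without the mouse labelled WT 1 and -1.57 and -1.57 without mouse Aim2-/- 1. The part of the B cell, myeloid and neutrophil markers, which were higher in Aim2-/- libraries at 24 h, was not tested. At 3 counts the floor of a library at 24 h was between 0.147 and 0.154 CPM. For Atp8a2 and Gjb2 the interval of the ratio included 1, so that no difference was detected. These intervals cover counting error only and reach up to 10.1 for Atp8a2 and 3.59 for Gjb2, so a difference could have been missed at this depth.

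**Figure D4:**
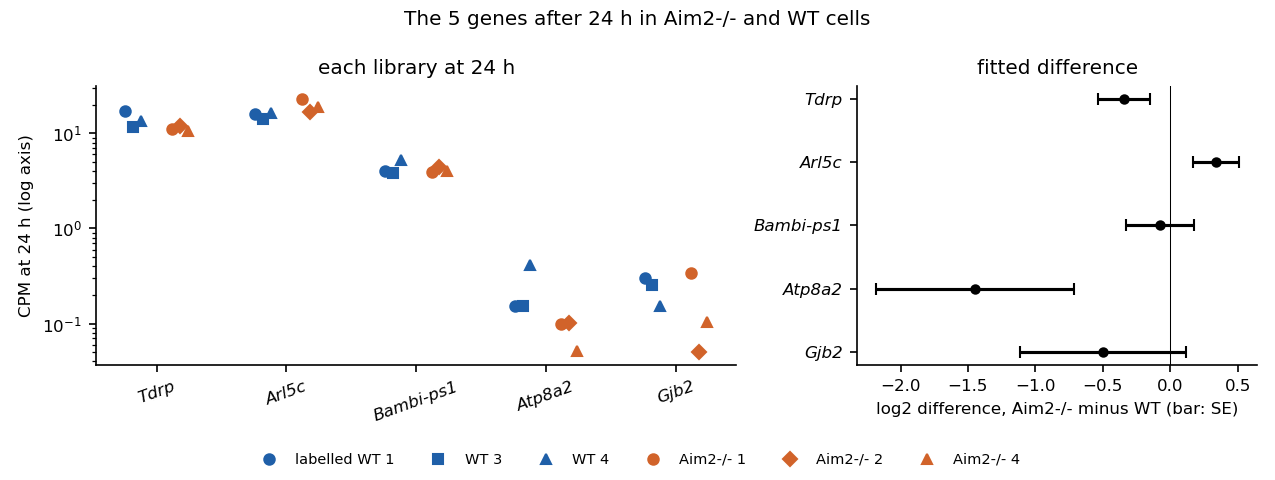
CPM (log axis) of the 5 genes in each library at 24 h (left) and the fitted log2 difference, Aim2-/- minus WT, with its SE (right). No adjusted p passed 0.05, and the values ranged from 0.271 to 0.892.

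The pathway of the parent gene, 36 tested genes of TGF-beta, activin and BMP signalling with Bambi among them, moved mainly downwards too. In WT cells 13, 18 and 24 of them fell and 2, 6 and 4 rose at 3, 6 and 24 h, and the share of all tested genes called lower at these times was 16.4%, 24.8% and 34.8% (32.6%, 51.1% and 71.4% in either direction). In Aim2-/- cells 16, 18 and 23 fell and 0, 3 and 3 rose, beside 14.6%, 22.7% and 33.5% of all genes called lower (30.7%, 51.2% and 70.3% in either direction). The median log2 change of the list at 24 h was -1.15 in WT and -1.11 in Aim2-/- cells, against -0.013 and 0.030 over all tested genes. Smad7, an inhibitory SMAD, fell in WT cells from 385 ± 26.0 to 127 ± 10.7 CPM at 3 h (SD, n = 3; log2 -1.60 (SE 0.10, adjusted p 7.3e-10)). Tgif1, a corepressor of SMAD-driven transcription, fell from 484 ± 8.26 to 207 ± 17.2 CPM (log2 -1.22 (SE 0.067, adjusted p 2.2e-10)). Id1, a target of BMP signalling, rose instead, by 3.55 in WT and 2.20 in Aim2-/- cells at 24 h, from 0.442 and 1.54 CPM. Fst, which encodes the activin antagonist follistatin, was called lower at 24 h, where its mean was 0.0169 CPM in WT and 0.0657 CPM in Aim2-/- cells after 1.502 and 3.27 CPM at 0 h, with edgeR adjusted p of 5.8e-05 and 1.4e-05, and its 24 h means lie under the floor of 3 counts in a library. Without the mouse labelled WT 1, 14, 20 and 27 genes of the list were called in WT cells at 3, 6 and 24 h, and without mouse Aim2-/- 1 there were 15, 22 and 24 in Aim2-/- cells.

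The flippase relatives of Atp8a2 were divided at 3 h and mostly lower at 24 h. Of 14 other tested genes, which are P4-ATPases, CDC50 subunits and the scramblase genes Ano6 and Xkr8, 4, 7 and 9 fell and 3, 3 and 2 rose in WT cells at 3, 6 and 24 h, and 3, 7 and 10 fell and 2, 2 and 2 rose in Aim2-/- cells. As shares of the list, 28.6, 50.0 and 64.3% fell in WT and 21.4, 50.0 and 71.4% in Aim2-/- cells, beside 16.4%, 24.8% and 34.8% and 14.6%, 22.7% and 33.5% of all tested genes. In either direction 6, 9 and 10 of the 14 were called in WT cells without the mouse labelled WT 1, and without mouse Aim2-/- 1 there were 6, 9 and 11 in Aim2-/- cells. Atp10d had the largest fitted change of the list in WT cells at 24 h, from 176 ± 10.9 CPM at 0 h to 14.6 ± 0.762 CPM at 24 h in WT cells (SD, n = 3; log2 -3.59 (SE 0.13, adjusted p 8.0e-15)). Atp8a1, the closest relative of Atp8a2, was called lower at every time, with -0.79, -0.48 and -0.83 at 3, 6 and 24 h in WT cells, and so was Tmem30a, the CDC50 subunit that flippases need to leave the endoplasmic reticulum, with -0.58, -0.66 and -1.09. Atp8b4 changed by -1.46 in WT and -0.92 in Aim2-/- cells at 24 h. Atp9a took another course, being higher at 6 h (1.23 in WT, 0.63 in Aim2-/- cells) and lower at 24 h (-1.16 and -1.34). Beside Gjb2, only 2 connexin or pannexin genes of 23 listed were tested, Panx1 and Gja1. Panx1, at 70.9 ± 2.18 CPM in WT cells at 0 h, had a single call, a change of -0.35 in Aim2-/- cells at 3 h (adjusted p 0.00916), while Gja1 had none and stood at 1.18 and 1.74 CPM at 0 and 24 h in WT cells.

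The GTPase list with Arl5c showed no common direction. Of 28 other tested genes of the ARF, ARL and SAR group, with Trim23, 6, 11 and 11 rose and 4, 6 and 9 fell in WT cells at 3, 6 and 24 h. Of all genes, 16.2%, 26.4% and 36.6% were called higher there and 16.4%, 24.8% and 34.8% lower. In Aim2-/- cells 8, 10 and 9 rose and 6, 6 and 10 fell, beside 16.1%, 28.5% and 36.8% called higher and 14.6%, 22.7% and 33.5% called lower. Arl5b was called lower at each time, with -0.23, -0.55 and -1.34 at 3, 6 and 24 h in WT cells, and Arl5a changed by 0.17, 0.19 and 0.11, with adjusted p of 0.409, 0.303 and 0.504. Arl4c, the most abundant of the list's genes named here at 391.9 ± 44.4 CPM, was lowest late, with -2.61 in WT and -2.20 in Aim2-/- cells at 24 h. Arl6 and Arl3, which serve traffic to the cilium, rose by 3.27 and 2.45 in WT cells at 24 h, and Arl2, which acts in tubulin folding, rose by 1.90. Between genotypes at 24 h, no gene of the 4 lists was called (edgeR), beside 0.666% of all genes. In the paired fit with mouse as a block, 16 in place of 10 genes of this list were called in WT cells at 3 h. Without the mouse labelled WT 1, 7, 14 and 18 were called in WT cells at 3, 6 and 24 h, and without mouse Aim2-/- 1 there were 10, 13 and 16 in Aim2-/- cells.

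**Figure D5:**
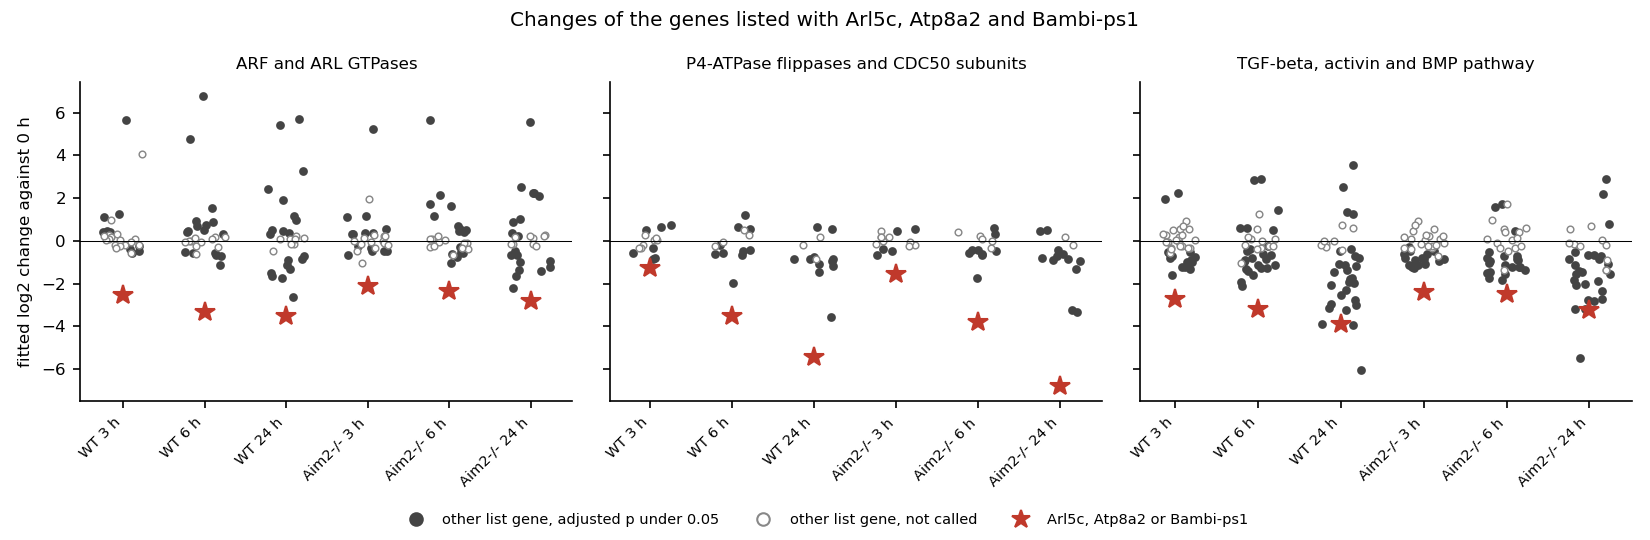
Fitted log2 change against 0 h of the other tested genes of 3 lists (filled where the adjusted p was under 0.05, open where not) at 3, 6 and 24 h in WT and Aim2-/- cells, with the member that belongs beside each list as a star. The star of Arl5c lies below all other genes of its list at every time, and so does that of Atp8a2. The members were chosen for large falls at 3 or 6 h in these libraries, so nothing is read from that.

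Likeness of pattern was measured by Pearson's r of log2 CPM over the 24 libraries, which share mice and time points, and is given as a description. The most similar genes were taken among tested genes whose symbol is not a clone name. Tdrp and Bambi-ps1 had the highest r of any pair of members (0.989), Atp8a2 and Gjb2 had 0.944, and the pairs of either of the latter with Tdrp, Arl5c or Bambi-ps1 had between 0.810 and 0.869. The genes most like Tdrp were Ugcg, the glucosylceramide synthase (0.991), Bambi-ps1 and Rflnb, a filamin-binding protein (0.985), and the same pair of genes stood beside Bambi-ps1 (0.991 and 0.983). Arl5c was most like Ss18, a chromatin remodelling subunit (0.985), B4galt1, a Golgi galactosyltransferase (0.982), and Atp6v0d1, a proton pump subunit (0.980). Atp8a2 was most like the kinase gene Slk (0.981), Zc3h12a, which encodes the RNA-degrading enzyme Regnase (0.980), and Mfsd6 (0.978). Gjb2 was most like Trps1, a transcriptional repressor (0.974), Lrig1 (0.973) and Antxr2 (0.973). Of these, Ugcg went from 840.3 to 217 CPM in WT cells between 0 and 3 h and Slk from 402 to 184 CPM between 0 and 6 h.

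Called genes near the members were counted beside the shares over all genes. Within 500 kb of a member lay 82 tested genes, of which 17, 21 and 29 fell and 18, 28 and 28 rose in WT cells at 3, 6 and 24 h, beside 16.4%, 24.8% and 34.8% of all tested genes called lower and 16.2%, 26.4% and 36.6% called higher. Their median log2 change was 0.12, 0.011 and -0.099. Of the same genes 12, 23 and 26 fell and 14, 30 and 32 rose in Aim2-/- cells. Of all tested genes, 14.6%, 22.7% and 33.5% were called lower there and 16.1%, 28.5% and 36.8% higher. The tested genes nearest to Bambi-ps1 both fell with it. Slc28a2, a nucleoside transporter gene at a distance of 5798 bases, changed by -1.12, -1.90 and -2.04 in WT cells at 3, 6 and 24 h, and Gm14085, at 17415 bases, by -1.67, -3.59 and -4.91. The changes in Aim2-/- cells were -0.98, -1.35 and -1.63 for Slc28a2 and -1.63, -3.24 and -3.62 for Gm14085, and all were called by edgeR. Near Tdrp, Fbxo25, at 11486 bases, changed by -0.73, -1.10 and -1.42 in WT cells. Gm5907, nearer to Tdrp at 11058 bases, was called higher in WT cells (3.79, 5.06 and 4.71), from a 0 h mean of only 0.034 CPM. Near Arl5c, Plxdc1, at 3134 bases, was called in WT cells only at 24 h (-0.31, -0.74 and -2.17).

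AU-rich pentamers (ATTTA, given as DNA) in the 3′ untranslated region are a well-known signal for rapid mRNA decay, and were counted in the longest annotated coding transcript of each gene. Tdrp had none in 1779 bases of 3′ untranslated region, Arl5c none in 713 and Gjb2 none in 1469, while 68.6% of 12602 tested genes with such a region had at least 1. Atp8a2 had 11 in 9287 bases, or 1.18 per kilobase, close to the median of 1.26 over all genes. It also held 2 copies of the longer element TATTTAT, which 29.4% of the genes have, and 1 is shown with its flanks (GRCm38 chr14:59644225-59644254, minus strand) because Tdrp, Arl5c and Gjb2 have none, with the element in capitals.
Atp8a2: tccttctgtggTATTTATtccttccatctc
Bambi-ps1 has no annotated coding region. That Tdrp, Arl5c and Gjb2 hold no match says only that these letters are not in the annotated region.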

How the data were processed

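Stranded poly(A) libraries of CD4+ T cells were sequenced as 51-base single reads, and per the labels the authors used STAR, edgeR and DESeq2 with GRCm38 (versions not given in the sources used here). The deposited values are raw counts per Ensembl gene, made by the authors from STAR alignments. Of 54446 identifiers, 54409 matched GENCODE M21, whose symbols, coordinates and exon lengths were used. With R 4.3.3, edgeR 4.0.16 (filterByExpr with a minimum count of 10, TMM, glmQLFit and glmQLFTest) was fitted to all 24 libraries with 1 mean per group, and p-values were adjusted by Benjamini-Hochberg over 15325 genes with a threshold of 0.05. Libraries differed between 19715161 and 21627018 counts, and a floor of 3 counts was used. log2 CPM used a prior count of 2. The method was tested on simulated data. The members and gene lists were chosen with earlier results of these data known. Members were tested only between genotypes at 24 h. Named genes were the members, Aim2, the 3 genes with the highest r to each member (clone names left out), up to 4 called genes of each list with the largest change and at least 1 CPM, genes within 500 kb and those next to the members in the order of falls. Bambi, Arl5a, Arl5b, Atp8a1, Gja1, Fbxo25, Gm5907, Plxdc1, Slc28a2 and Gm14085 were chosen as relatives or neighbours after their values were seen. Exact intervals were computed with scipy 1.17.1. Samples of a mouse deviated together over time (r between 0.139 and 0.567 in 36 pairs, and between -0.432 and 0.0742 in 72 pairs of different mice), so mouse was used as a block in an alternative. DESeq2 1.42.0, limma 3.58.1 (voom), other size factors, filters and each library or mouse left out were the other alternatives.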

Additional observations from a re-analysis of the deposited data

How the results depend on the processing

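Over 510 alternatives to the 30 member changes against 0 h, all 510 kept the direction, and 26 moved by more than 1 SD of the replicates. At 24 h none of 98 alternatives gave a member an adjusted p under 0.05 between genotypes (edgeR quasi-likelihood test, DESeq2 or limma-voom), and the adjusted p ranged from 0.0749 to 0.757 for Tdrp and from 0.127 to 0.833 for Arl5c, from 0.803 to 0.993 for Bambi-ps1, from 0.233 to 0.714 for Atp8a2 and from 0.546 to 0.949 for Gjb2. With only the 24 h libraries fitted, Atp8a2 and Gjb2 did not pass the filter and gave no value. The difference in Bambi-ps1 turned from -0.079 to 0.066 without the 24 h library of mouse WT 4 and to 0.054 without that mouse, and leaving out libraries or mice gave -0.16 to 0.066. At 24 h the unadjusted p was under 0.05 for 3134 of 15325 genes in the reported fit. The number of genes called between genotypes at 24 h was the least stable value: 102 in the reported fit, 787 with DESeq2, 5 with limma-voom, 962 with no filter on low counts, 0 with only the libraries compared, and 3235 with mouse number as a block, although the numbers pair no animals across genotypes. Leaving out libraries or mice gave 0 to 2702 (0 without mouse WT 3, 2702 without mouse Aim2-/- 2, 165 without the mouse labelled WT 1, 14 without Aim2-/- 1), and the cause was not tested. Calls against 0 h stayed within 1.5 times in 100 of 102 alternatives. The exceptions were at 3 h, where leave-outs ranged from 2936 (without mouse WT 3) to 4632 in WT and from 2803 (without mouse Aim2-/- 4) to 4307 in Aim2-/- cells. With mouse as a block (the paired fit), 16 in place of 10 ARF and ARL genes were called in WT cells at 3 h, and the other 35 list counts tried, which were added after seeing the data, stayed within 1.5 times. Scaling by library totals moved the median gene by 0.11 in WT and 0.12 in Aim2-/- cells at 3 h and by 0.12 in Aim2-/- cells at 6 h (log2), and no member changed direction against 0 h under it. Depth limits Atp8a2 and Gjb2 at 24 h, where single reads set the level.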
